A study of Mus musculus with 6 samples.

Results

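The proteasome genes were taken as all rows of the expression table whose mouse symbol begins with Psm, then a letter from a to g, then a number. This pattern found 50 of the 24413 gene rows. By the known roles of their products, 14 encode the constitutive core particle, 17 the regulatory particle and 5 variant core subunits. Another 7 encode assembly chaperones and 6 encode activators or the inhibitor. The remaining symbol, Psmc3ip, encodes a meiotic recombination factor that is no part of the proteasome, and it was kept in the counts because the pattern takes it in.

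The libraries came from W-EGFP cells, which per the labels are interstitial cells of the testis at embryonic day 16.5. Per the labels, 10000 cells a sample were exposed for 1 hour to 0.5 µM SAG or to DMSO alone, with 3 libraries in each group. SAG is a small molecule that activates Smoothened, the membrane protein that starts the Hedgehog response inside the cell, and DMSO is its solvent. The cells of both groups came from FLE-EGFP mice, in which an enhancer of Nr5a1 that is active in fetal Leydig cells drives the green fluorescent protein. The sex steroid-producing fetal Leydig cells and their precursors lie in this tissue. The sources used here do not give the strain or the number of animals pooled. None says that the replicates were separate cultures, and a p-value here therefore covers just the spread among the libraries, which may be technical.

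The proteasome is the barrel-shaped protease that degrades proteins tagged with ubiquitin. Its core particle is made of stacked rings of alpha and beta subunits, with the cutting sites on beta subunits inside the barrel. The regulatory particle caps the barrel. Its base holds a ring of ATPases that unfold the substrate, and its lid removes the ubiquitin chain. Other caps, the activators, open the barrel without ATP, and chaperones build the core and the base step by step. Cells adjust many proteasome genes together, in part through the transcription factor NRF1, encoded by Nfe2l1, and interferon-gamma exchanges the cutting subunits for the immunoproteasome forms.

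In the SAG libraries 7693274 to 8804281 reads fell on genes, and in the DMSO libraries 18486396 to 25491259, so values of SAG libraries carry more counting error. Gli1, a direct Hedgehog target, had signals of 32.6, 46.3 and 30.8 in the SAG libraries, against 0.704, 0.324 and 0.846 in the DMSO libraries. SAG replicate 3 stood apart. Its share of reads on the ribosomal RNA gene Rn45s was 1.67%, against 0.326% and 0.360% in the other SAG libraries and 0.336% to 0.338% in DMSO. Its spike-in reads were 1205, against 111 and 54 in the other SAG libraries and 0 in DMSO. The summed signal of 3 adrenal cortex markers was 60.4 in that library, 6.92 and 3.18 in the other SAG libraries and 1.82 to 2.31 in DMSO. The main results below are therefore also given without SAG replicate 3 where that changes them, and the part of these values in the results was not tested. Every SAG library held spike-in reads and had fewer reads on genes than any DMSO library. Such technical differences between the groups cannot be told apart from SAG.

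Of the 46 proteasome genes that could be tested, 11 fell with SAG and none rose. The genes that fell encode 7 subunits of the regulatory particle, 3 of the core particle and 1 activator, with means 1.27-fold (Psme4) to 1.58-fold (Psmd12) lower. All values are the authors' deposited signal, a scaled read count per gene, and a gene was called at a limma Benjamini-Hochberg adjusted p under 0.05 over all 12550 genes whose mean signal reached 1. The 11 members that fell are 23.9% of the 46 that reached that mean. Over all genes tested, 16.6% were called lower and 12.9% higher, and the shares were not tested against each other. At an unadjusted p under 0.05 there were 17 of the 46 members and 5298 of the 12550 genes tested. Psme1 was called higher by edgeR and by DESeq2 on recovered reads. Log2 fold changes are on the log2(signal + 1) scale, with SAG minus DMSO as the sign. Their median was -0.17 over the 46 members and -0.03 over all genes tested. The SAG and DMSO libraries did not overlap for 23 members, of which 20 were lower with SAG, where 26.8% of all genes did not overlap with SAG lower and 21.2% with SAG higher. In bulk samples, fewer cells of a type and less RNA per cell cannot be told apart.

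Without SAG replicate 3 the count was 27 lower and 1 higher, or 58.7% lower. In that fit 27.0% of all genes tested were lower and 19.7% higher, and the members' median was -0.29. With the libraries scaled by their totals in place of the deposited scaling, the median of all genes moved to 0.10 and the members' median to -0.03. The members' median then lay at -0.13 relative to that of all genes, and at -0.14 as deposited, and with the totals 6 members were lower and 2 higher. The 6 are 13% of the members, near the 10% of all genes that were lower in that fit, where 19.7% of all genes were higher. The SAG libraries held 0.464%, 0.415% and 0.509% of their reads on the 50 members, and the DMSO libraries 0.500%, 0.492% and 0.499%. SAG replicates 1 and 2 were below every DMSO library in this share and SAG replicate 3 was above them all.

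**Figure D1:**
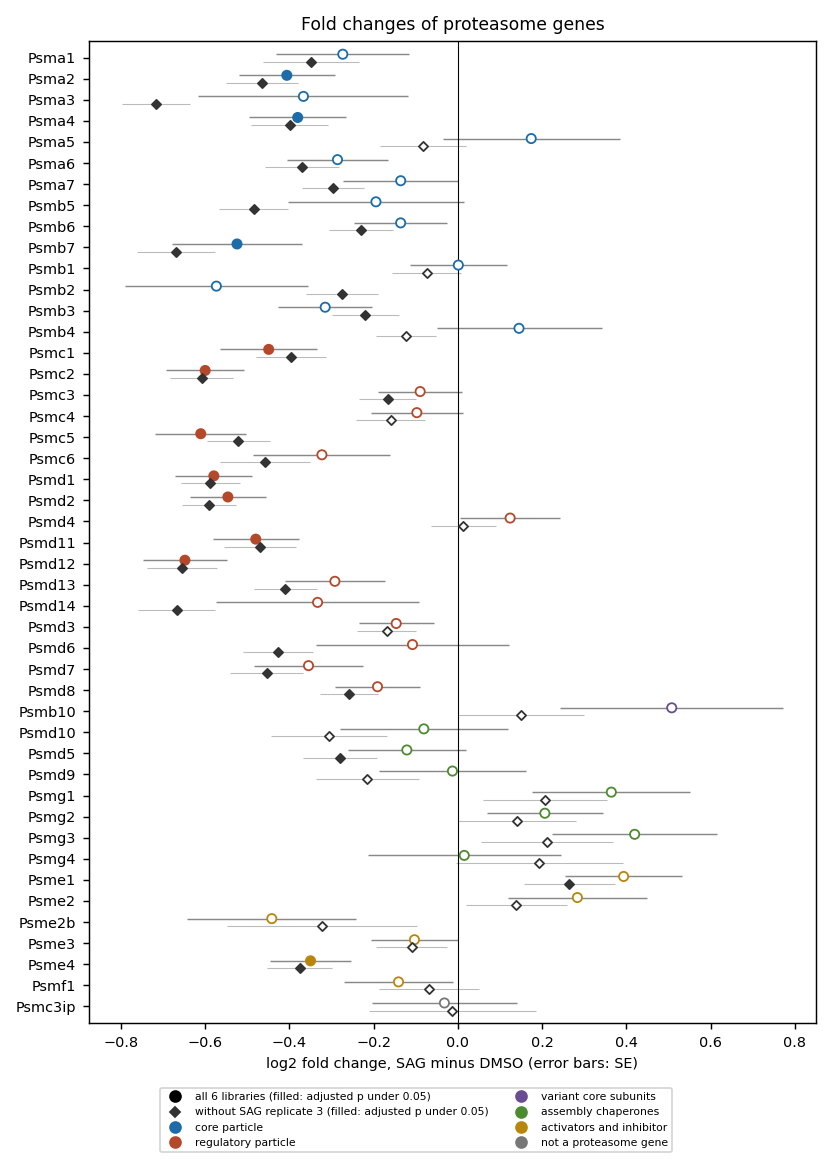
Log2 fold change of each of the 46 tested members, SAG minus DMSO, with SE. Circles use all 6 libraries, coloured by the part of the proteasome, and diamonds leave out SAG replicate 3; filled symbols have an adjusted p under 0.05, which 11 members reached with all libraries, all lower, and 27 lower and 1 higher without SAG replicate 3.

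Of the 14 constitutive core genes, 3 fell (Psma2, Psma4 and Psmb7) and none rose, with a median log2 fold change of -0.28. These 3 are 21.4% of the core genes, near the 16.6% called lower over all genes. Of these, 2 encode alpha subunits, which form the outer rings and the gate, among 7 tested. Psmb7 encodes the trypsin-like cutting subunit. Without SAG replicate 3, 11 of the 14 were lower (78.6%, against 27.0% of all genes) with a median of -0.32, and scaled by library totals none was called.

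Psmb7 had signals of 112, 87.6 and 135 in the SAG libraries, against 172, 143 and 163 in the DMSO libraries. Every SAG library lay below every DMSO library, with SAG replicate 2 the lowest. Its signal averaged 112 ± 23.5 with SAG and 159 ± 14.9 with DMSO (SD, n = 3 each), 1.42-fold lower with SAG (log2 fold change -0.52, SE 0.15; limma, Benjamini-Hochberg adjusted p = 0.0298). Its call was lost without SAG replicate 1, SAG replicate 2 or any DMSO library, and the adjusted p ran from 1.8e-06 to 0.125 over the 6 left-out fits.

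Psma2 had signals of 107, 86.2 and 109 in the SAG libraries and 129, 134 and 136 in the DMSO libraries. The groups did not overlap, and the log2 fold change was -0.41 (SE 0.11; limma, Benjamini-Hochberg adjusted p = 0.0247). Psma4 had signals of 104, 80.4 and 95.05 in the SAG libraries and 127, 115 and 120.3 in the DMSO libraries. Again every SAG library was below every DMSO library, with a log2 fold change of -0.38 (SE 0.12; limma, Benjamini-Hochberg adjusted p = 0.0341). Both calls were lost without any of the DMSO libraries, and that of Psma4 also without SAG replicate 2. Over the left-out fits the adjusted p reached 0.11 for Psma2 and 0.144 for Psma4.

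The other cutting subunits did not pass the test with all 6 libraries. Psmb5, the chymotrypsin-like subunit, had signals of 72.6, 69.8 and 131 in the SAG libraries and 102, 102 and 96.8 in the DMSO libraries. SAG replicates 1 and 2 lay below all DMSO libraries and SAG replicate 3 above them (log2 fold change -0.19, SE 0.21). Psmb6, the caspase-like subunit, had signals of 114, 119 and 142 in the SAG libraries and 130.2, 142 and 137 in the DMSO libraries, with SAG replicates 1 and 2 below all DMSO libraries and SAG replicate 3 within the DMSO range. All 3 cutting subunits were called lower without SAG replicate 3.

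The remaining beta subunits differed among themselves. Psmb3 and Psmb2, which did not pass with all 6 libraries, had log2 fold changes of -0.32 and -0.57. Without SAG replicate 3 both were called lower, at -0.22 for Psmb3 and -0.28 for Psmb2. Psmb2 was the tested member with the lowest signal in SAG replicate 3 relative to the other SAG libraries. Its signals were 75.9, 66.5 and 37.8 in the SAG libraries and 85.8, 88.6 and 84.4 in the DMSO libraries, so the groups did not overlap (limma, Benjamini-Hochberg adjusted p = 0.0749). Psmb4 had 206, 187 and 344 in the SAG libraries and 214, 220.02 and 208 in the DMSO libraries, with SAG replicate 3 the highest of all 6. Psmb1 averaged 146 ± 18.7 with SAG and 145 ± 6.81 with DMSO.

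**Figure D2:**
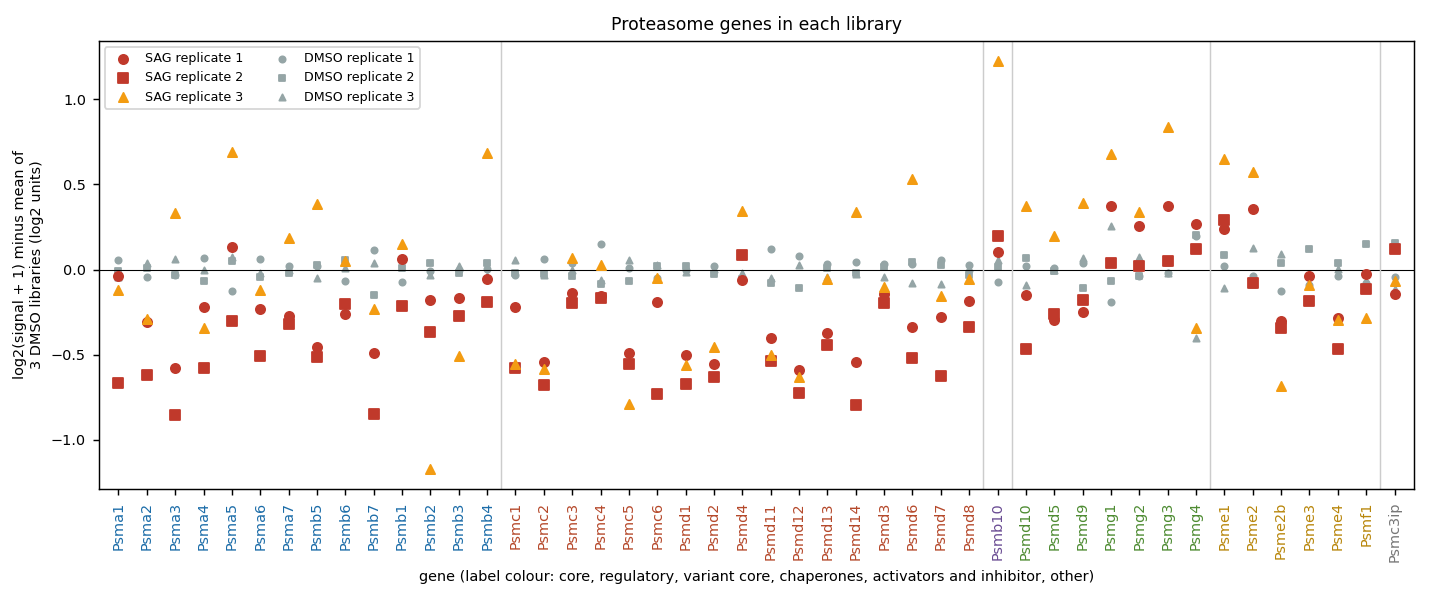
Signal of each tested member in each library, as log2(signal + 1) minus the mean of the 3 DMSO libraries, with 0 as the DMSO mean. Large symbols are SAG libraries (replicate 3 in orange) and small grey symbols DMSO libraries; the orange triangles lie above both other SAG libraries for 30 of 46 genes.

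SAG replicate 3 lay above both other SAG libraries for 30 of the 46 members, or 65.2%, against 40.7% of all genes tested. It was the highest of all 6 libraries for 19 members (41.3%, against 27.4% of all genes). SAG replicate 2 was the lowest of the 6 for 29 members (63.0%, against 22.9% of all genes). Relative to the mean of SAG replicates 1 and 2, the signal in SAG replicate 3 was 2.19-fold for Psmb10, 2.07-fold for Psma3, 2.02-fold for Psmd14, 1.95-fold for Psmd6 and 1.84-fold for Psmb5. It was 0.530-fold for Psmb2. Psma3, Psmd14, Psmd6 and Psmb5 were called lower without that library and not with it.

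Levels between genes were compared per kb of exon. Over the 14 core genes, the signal per kb had a median of 41.3 with SAG and 49.0 with DMSO. The order ran from 27.1 ± 6.03 (Psma1) to 126 ± 43.8 (Psmb4) with SAG, a 4.65-fold range. With DMSO it ran from 31.5 ± 1.48 (Psmb1) to 111 ± 3.20 (Psmb5), a 3.53-fold range, with Psma1 next to the lowest at 32.3 ± 1.15. In DMSO, Psmb5 and Psmb4 (110 ± 3.05) did not differ beyond their SD, nor did Psmb1 and Psma1. With SAG, Psmb4 and Psmb5 (101 ± 38.5) did not differ beyond their SD either. The coefficient of variation over the 14 genes was 55.0% with SAG and 43.6% with DMSO, although the assembled ring holds each of these subunits in equal number. The SAG values include SAG replicate 3, where Psmb4 was 1.75-fold and Psmb5 1.84-fold the mean of the other SAG libraries. The range and variation without that library were not computed, and their difference between the groups was not tested. The length used here is the union of all annotated exons, which is at least as long as any transcript, and the order depends on it. Per kb of the longest annotated transcript, Psma2 was the lowest core gene (34.6 with SAG and 45.7 with DMSO) and Psmb4 the highest (208 with SAG and 181 with DMSO).

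Among the 17 regulatory genes the signal per kb had a median of 37.7 with SAG and 42.9 with DMSO. Psmd11 had the lowest level in either group, at 11.98 ± 0.587 with SAG and 16.8 ± 1.29 with DMSO. Psmc3 had the highest with SAG, at 79.5 ± 7.74, against 84.3 ± 2.24 with DMSO. Psmc5 had the highest with DMSO, and stood at 69.6 ± 7.48 per kb with SAG and 106 ± 4.49 per kb with DMSO. Psmc1 stood at 76.2 ± 11.1 with SAG and 104 ± 3.39 with DMSO, and within each group these 2 ATPase genes did not differ beyond their SD. Per kb of the longest transcript Psmd11 was again the lowest, and the highest were Psmd8 with SAG (114) and Psmd2 with DMSO (134).

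**Figure D3:**
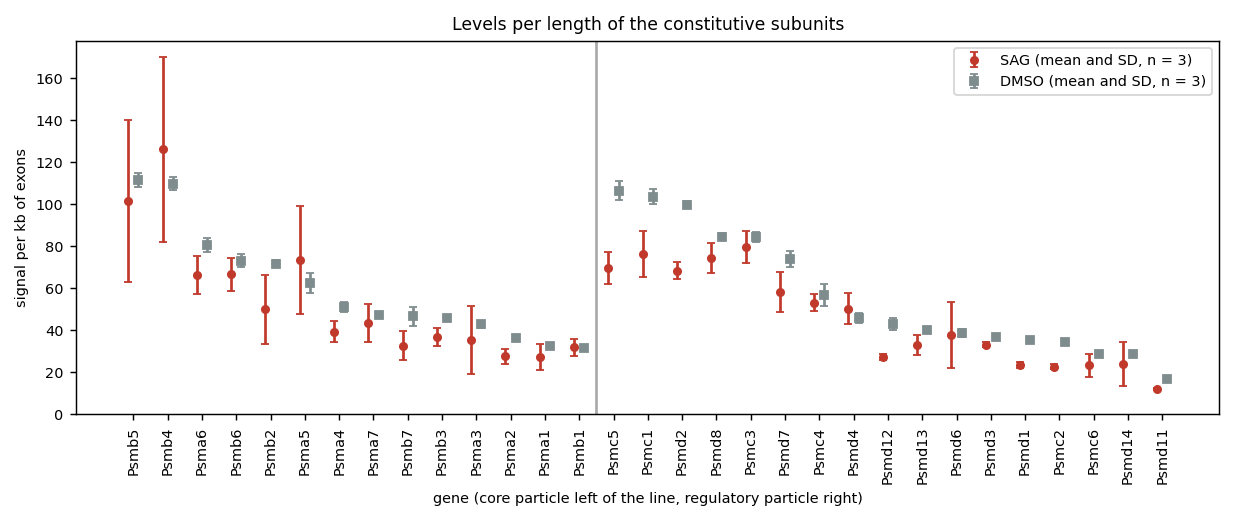
Signal per kb of exon for the 31 constitutive subunits, mean and SD over 3 libraries, ordered by the DMSO mean within the core particle (left of the line) and the regulatory particle (right). SAG bars are wide for Psmb5, Psmb4 and Psma5; Psmc5, Psmc1 and Psmd2 lead the regulatory particle in DMSO.

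The genes of the regulatory particle held most of the calls. Of 17, 7 fell (41.2%, against 16.6% of all genes) and none rose, with a median log2 fold change of -0.33. Without SAG replicate 3, 14 were lower (82.4%, against 27.0% of all genes), with a median of -0.45. In the base, 5 of 9 fell (Psmc1, Psmc2, Psmc5, Psmd1 and Psmd2), or 55.6%. In the lid, 2 of 8 fell (Psmd11 and Psmd12), or 25%, and 7 of 8 (87.5%) were lower without SAG replicate 3. The genes that fell encode 3 ATPases, both scaffold proteins of the base and a pair of neighbouring lid subunits. Whether the regulatory particle differed from the core particle was not tested.

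Psmd12, a structural lid subunit, had signals of 75.1, 68.4 and 72.8 in the SAG libraries, against 120.1, 105 and 116 in the DMSO libraries. The SAG libraries were close to each other and all far below the DMSO libraries. Its signal was 72.1 ± 3.40 with SAG and 114 ± 7.46 with DMSO (SD, n = 3 each), 1.58-fold lower with SAG (log2 fold change -0.65, SE 0.10; limma, Benjamini-Hochberg adjusted p = 0.00163). Psmd11, its neighbour in the lid, had 80.6, 73.4 and 75.3 in the SAG libraries and 117, 101 and 103 in the DMSO libraries. These groups did not overlap either, and Psmd11 was 1.40-fold lower with SAG (log2 fold change -0.48, SE 0.10; limma, Benjamini-Hochberg adjusted p = 0.00774). Its call was lost without DMSO replicate 1, at an adjusted p of 0.0574, the highest over its left-out fits, where the lowest was 6.4e-05.

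Among the base ATPases, Psmc2 had signals of 118, 107 and 115 in the SAG libraries and 179.6, 169 and 168 in the DMSO libraries. All SAG libraries were below all DMSO libraries, a 1.52-fold lower mean (log2 fold change -0.60, SE 0.09; limma, Benjamini-Hochberg adjusted p = 0.00163). Psmc5 had 105, 101 and 85.3 in the SAG libraries and 149, 141 and 154 in the DMSO libraries. Here SAG replicate 3 was the lowest of the 6 (log2 fold change -0.61, SE 0.11; limma, Benjamini-Hochberg adjusted p = 0.00329). Psmc1 had 172, 134 and 136 in the SAG libraries and 196, 197 and 208 in the DMSO libraries, without overlap (log2 fold change -0.45, SE 0.12; limma, Benjamini-Hochberg adjusted p = 0.0176). The call of Psmc1 was lost without any DMSO library and with scaling by library totals.

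The other ATPase genes of the same ring did not pass. Psmc3, Psmc4 and Psmc6 had log2 fold changes of -0.09, -0.10 and -0.32, and those of Psmc3 and Psmc4 were 0.05 and 0.04 with scaling by library totals. Without SAG replicate 3, Psmc3 (-0.17) and Psmc6 (-0.46) were called lower and Psmc4 was not. Psmc3 averaged 207 ± 20.2 with SAG and 219.9 ± 5.84 with DMSO, so its groups overlapped. Psmc6 averaged 81.1 ± 19.0 with SAG and 99.7 ± 3.09 with DMSO, and its groups did not overlap.

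Psmd1 and Psmd2 encode the large scaffold proteins of the base, on which ubiquitin receptors and shuttle factors dock. Psmd1 had signals of 180.5, 160.0 and 173 in the SAG libraries, against 255, 259 and 254 in the DMSO libraries. Psmd2, with the highest mean signal of all members in each group, had 274, 259.6 and 293 in the SAG libraries, against 408, 396 and 404 in the DMSO libraries. For each gene the groups lay far apart with little spread, with means 1.495-fold lower for Psmd1 and 1.46-fold lower for Psmd2 with SAG. The log2 fold changes were -0.58 (SE 0.09) for Psmd1 and -0.55 (SE 0.09) for Psmd2, with limma Benjamini-Hochberg adjusted p of 0.0018 for Psmd1 and 0.00236 for Psmd2. Psmd4, a ubiquitin receptor of the base, averaged 141 ± 20.6 with SAG and 128 ± 6.24 with DMSO and did not pass the test.

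The calls of Psmc2, Psmc5, Psmd1, Psmd2 and Psmd12 held in all 6 fits that left out a library and in all 14 other fits run. Over the left-out fits the highest adjusted p of these 5 genes was 0.0275, for Psmc5. Psmd14, the deubiquitinase of the lid, did not pass with all 6 libraries. Its signals were 54.7, 45.8 and 101 in the SAG libraries and 82.7, 79.0 and 78.6 in the DMSO libraries. SAG replicate 3 was the highest of the 6 and the other SAG libraries the lowest. Without SAG replicate 3 Psmd14 was called lower, at -0.67. Its partner Psmd7 had a log2 fold change of -0.35 (SE 0.13; limma, Benjamini-Hochberg adjusted p = 0.065) without overlap of the groups. Psmd7 was called lower without SAG replicate 3, at -0.45, and with length and GC trends removed.

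**Figure D4:**
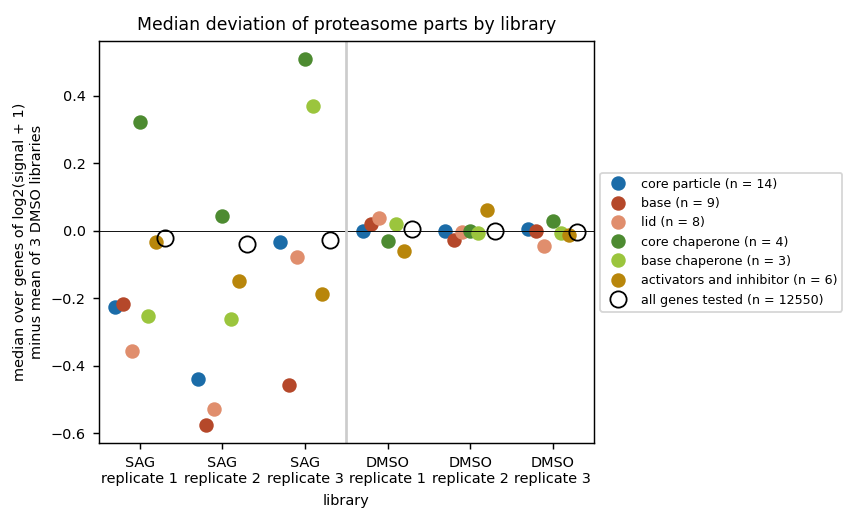
Median over the genes of each part, in each library, of log2(signal + 1) minus the mean of the DMSO libraries; open circles give all 12550 genes tested. The base lies at -0.22, -0.58 and -0.46 in SAG replicates 1, 2 and 3, while the core particle and lid lie at -0.03 and -0.08 in SAG replicate 3.

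By library, the base genes had median deviations from the DMSO mean of -0.22, -0.58 and -0.46 in the SAG libraries. The lid genes had -0.36, -0.53 and -0.08, and the core genes -0.22, -0.44 and -0.03. The medians of all 3 parts were below the DMSO mean in every SAG library, with those of the core and lid close to it in SAG replicate 3. Over all genes tested the medians were -0.02, -0.04 and -0.03 in the SAG libraries. In SAG replicate 3 the core median was thus near that of all genes.

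On GRCm38, with GENCODE M21 as annotation, Psmd12 spans chr11:107479484-107504362 on the plus strand, Psmc5 chr11:106256154-106263120 on the plus strand and Psmd11 chr11:80428615-80473248 on the plus strand. Psmc2 spans chr5:21785283-21803787, Psmd1 chr1:86064387-86139151 and Psmd2 chr16:20651652-20663414, all on the plus strand. Psmb7 overlaps the gene Nek6 on the opposite strand over 6571 bases. Psmd1 overlaps Htr2b on the opposite strand over 12945 bases and the predicted gene Gm21972 on the same strand. Psma2 shares 8943 bases on its own strand with AW209491. Psmg3 shares 2816 bases on its own strand with Gm26938, and Psme2b all of its 837 bases with Gm12185. These overlaps are of whole gene spans with introns, and whether exons overlap was not examined. The library kit keeps the strand, but the strand setting of the counting is not given in the sources used here. Whether reads of such pairs were mixed is therefore not known.

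Promoter sequences were read for features that the choice of members did not use. In RefSeq on GRCm38.p6, 42 members had a promoter sequence, and the 250 bases before the start were searched on both strands. The core of the motif bound by the ETS family of transcription factors, CCGGAAG or CTTCCGG on the other strand, was in the windows of 13 of 42 members and in 7.83% of 27025 genes. It was in 8 of 14 regulatory genes with a sequence (57.1%), 1 of 11 core genes (9.09%) and 6 of 10 members that fell. Among the regulatory genes with a sequence it was not in the window of Psmc5 and Psmd1, which also fell. These shares were not tested. The sequences of Psmd12, Psmd2, Psmc2 and Psmd11, which fell, and Psmd6, which did not pass, are shown because all hold the motif close to the start. Each is the 100 bases before the start, read along the gene's own strand, with the motif in capitals.
Psmd12, chr11:107479428-107479527, plus strand: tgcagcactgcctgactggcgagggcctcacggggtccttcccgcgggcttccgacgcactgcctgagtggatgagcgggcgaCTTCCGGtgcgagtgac
Psmd2, chr16:20651552-20651651, plus strand: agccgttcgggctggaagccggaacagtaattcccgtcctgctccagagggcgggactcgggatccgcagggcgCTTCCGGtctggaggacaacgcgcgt
Psmc2, chr5:21786647-21786746, plus strand: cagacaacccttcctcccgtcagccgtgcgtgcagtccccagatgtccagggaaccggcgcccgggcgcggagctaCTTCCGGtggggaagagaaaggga
Psmd11, chr11:80428515-80428614, plus strand: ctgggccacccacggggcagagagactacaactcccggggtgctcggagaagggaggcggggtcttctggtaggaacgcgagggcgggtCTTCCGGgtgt
Psmd6, chr14:14120946-14121045, minus strand: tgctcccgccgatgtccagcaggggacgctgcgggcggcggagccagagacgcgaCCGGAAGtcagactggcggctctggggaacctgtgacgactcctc

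The motif began 17 bases before the start in Psmd12, 26 in Psmd2, 24 in Psmc2, 11 in Psmd11 and 45 in Psmd6. A match of letters is a description and not a binding site. The window shown for Psmc2 lies inside the annotated gene, since the RefSeq start used is downstream of the first GENCODE start. For the same reason the windows shown for Psmd12, Psmd6 and Psmb5 run partly into their annotated genes. In Psmd12 the marked motif lies inside the annotated gene. An earlier RefSeq start of Psmc2 has the motif 84 bases before it. The core of the antioxidant response element, TGACNNNGC, which NRF1 can bind, was in the windows of 5 of 42 members (11.9%) and 11.5% of all genes. The cutting subunits Psmb5 and Psmb6 hold it, and Psmb5 is shown, with the motif in capitals 47 bases before the start.
Psmb5, chr14:54617996-54618095, minus strand: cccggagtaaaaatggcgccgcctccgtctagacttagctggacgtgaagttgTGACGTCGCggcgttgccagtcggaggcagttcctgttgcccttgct

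The CCAAT box, searched as CCAAT on both strands, was in 15 of 42 members (35.7%) and 37.5% of all genes. Among the 31 constitutive subunits, the log2 fold change had a Spearman correlation of -0.23 with exon length and 0.46 with GC content, where over all genes these were -0.14 and 0.27. These are correlations across genes of the same 6 libraries, given as a description. With length and GC trends removed, 12 members were lower (26.1%, against 15.8% of all genes) and none higher.

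Of the 5 variant core subunits, 4 were at or near 0. Psmb8, the immunoproteasome form of Psmb5, had 11, 5 and 8 reads in the SAG libraries and 0, 4 and 7 reads in the DMSO libraries. Psmb9, the immunoproteasome form of Psmb6, had 3, 6 and 4 reads in the SAG libraries and 11, 2 and 0 in the DMSO libraries. Psma8, an alpha subunit of male germ cells, had 1, 0 and 7 reads in the SAG libraries and 28, 8 and 5 in the DMSO libraries, and Psmb11, the form of thymic cortical cells, had 0 reads in all 6. These 4 genes were under the mean signal needed for the test. A fit with no such filter called Psmb8 higher (limma, Benjamini-Hochberg adjusted p = 0.0333), the only limma fit in which it was tested.

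Psmb10, the immunoproteasome form of Psmb7, was measured well. It had signals of 13.2, 14.1 and 29.8 in the SAG libraries, against 11.6, 12.3 and 12.7 in the DMSO libraries. Every SAG library was above every DMSO library, but SAG replicate 3 stood far above the rest, and the gene did not pass (log2 fold change 0.51, SE 0.26; limma, Benjamini-Hochberg adjusted p = 0.176). An antisense gene, Gm16156, covers all of Psmb10.

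The ratio of each immunoproteasome subunit to the subunit it replaces was taken within a library, which removes the scaling. Psmb10 was 11.7%, 16.1% and 22.1% of Psmb7 in the SAG libraries and 6.73%, 8.65% and 7.80% in the DMSO libraries. Psmb8 was 1.66%, 0.759% and 0.784% of Psmb5 in the SAG libraries and 0%, 0.181% and 0.408% in the DMSO libraries. Psmb9 was 0.289%, 0.536% and 0.363% of Psmb6 in the SAG libraries and 0.350%, 0.0651% and 0% in the DMSO libraries. The first 2 ratios were higher in every SAG library than in every DMSO library, and the third overlapped. The exact two-sided permutation p over 6 libraries was 0.1 for the ratios of Psmb10 and Psmb8, the smallest possible, and 0.2 for that of Psmb9. Adjusted by Benjamini-Hochberg over the 3 ratios, it was 0.15 for Psmb10 and Psmb8 and 0.2 for Psmb9.

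Of the 6 activator and inhibitor genes, 1 fell and none rose. This is 16.7%, about the same as the 16.6% of all genes called lower. The gene that fell, Psme4, encodes the large nuclear activator. It had signals of 123, 108 and 122 in the SAG libraries, against 146, 154 and 150.1 in the DMSO libraries. The groups did not overlap, and its signal was 118 ± 8.33 with SAG and 149.8 ± 4.03 with DMSO (SD, n = 3 each; log2 fold change -0.35, SE 0.10; limma, Benjamini-Hochberg adjusted p = 0.0237). The call was lost without any DMSO library, with scaling by library totals, with limma without trend, with length and GC trends removed and with a replicate block.

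Psme1 and Psme2 encode the subunits of the activator that interferon-gamma induces. Psme1 had signals of 37.3, 38.9 and 50.1 in the SAG libraries, against 32.0, 33.6 and 29.2 in the DMSO libraries. All SAG libraries were above all DMSO libraries, and the gene was just outside the threshold with all 6 libraries (log2 fold change 0.39, SE 0.14; limma, Benjamini-Hochberg adjusted p = 0.0574). It passed as higher in 1 of 6 left-out fits and 5 of 14 other fits, with adjusted p from 0.0139 to 0.203 over all of them. Psme2 had 45.7, 33.7 and 53.4 in the SAG libraries and 34.6, 33.4 and 38.97 in the DMSO libraries, where the groups overlapped (log2 fold change 0.28, SE 0.17).

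Psme3, the nuclear activator of the same family, had 99.5, 89.8 and 95.9 in the SAG libraries and 95.7, 111 and 99.99 in the DMSO libraries, with overlap. Psme2b, a retrotransposed copy of Psme2, had signals of 1.80 to 2.64 with SAG and 3.11 to 3.78 with DMSO. It did not pass, and reads of so close a copy may be shared with Psme2. All of Psme2b also lies within Gm12185 on the same strand. Psmf1, the inhibitor, had 26.9, 25.3 and 22.3 in the SAG libraries and 25.9, 30.5 and 26.1 in the DMSO libraries, also with overlap. The median over these 6 genes was -0.12, and 0.02 with scaling by library totals.

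None of the 7 assembly chaperone genes passed the test with all 6 libraries, and their median log2 fold change was 0.02. The 4 chaperones of the core particle, Psmg1 to Psmg4, had a median of 0.29, with Psmg3 at 15.8 ± 4.65 with SAG and 11.2 ± 0.289 with DMSO and Psmg1 at 24.3 ± 5.54 with SAG and 18.5 ± 3.23 with DMSO. The 3 chaperones of the base, Psmd5, Psmd9 and Psmd10, had log2 fold changes of -0.12, -0.01 and -0.08, and values above 0 (0.02, 0.12 and 0.05) with scaling by library totals. Psmd5 was called lower without SAG replicate 3. Psmg3 was called higher without SAG replicate 2, with scaling by library totals and with library weights. The median of the core chaperones was above 0 in each SAG library, at 0.32, 0.04 and 0.51. The difference between chaperones and subunits was not tested.

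Genes that work with the proteasome were read in 7 lists, whose counts stand beside 16.6% of all genes lower and 12.9% higher. The shares of the transcriptional control and interferon-gamma lists lay near or below these. Among 14 factors that bind the particle, 5 fell and none rose. AI314180, which encodes a large proteasome-binding protein, had a signal of 74.6 ± 2.33 with SAG and 108 ± 3.41 with DMSO, 1.44-fold lower. The other 4 were the ubiquitin ligase gene Ube3c (1.30-fold lower), the deubiquitinase gene Uchl5 (1.56-fold), and the shuttle factor genes Ubqln1 (1.24-fold) and Rad23b. Of 3 assembly and import factors tested, Ipo9, an import factor that in human cells carries proteasomes into the nucleus, fell to 166 ± 19.1 with SAG, against 233 ± 6.33 with DMSO. Pomp, the core particle maturation factor, had a log2 fold change of -0.35 and did not pass, but without SAG replicate 3 it was called lower, at -0.58.

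Of 4 genes for ubiquitin and its activating enzymes, 2 fell and none rose. These were the 2 genes for activating enzymes: Uba1 fell to 458 ± 12.1 with SAG, against 591 ± 12.985 with DMSO, and Uba6 fell to 33.0 ± 8.29 with SAG, against 50.1 ± 4.40 with DMSO. Rps27a and Ubb, which encode ubiquitin, did not pass. Rps27a averaged 391.6 ± 83.2 with SAG and 346 ± 9.60 with DMSO, and Ubb 341 ± 50.2 with SAG and 348 ± 8.37 with DMSO.

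Among 17 genes of transcriptional control of the proteasome, 2 rose and 1 fell. Foxo4, whose product in human embryonic stem cells controls the lid gene PSMD11, had signals of 86.9, 95.1 and 108 in the SAG libraries and 28.7, 25.8 and 31.2 in the DMSO libraries. It was 3.38-fold higher with SAG (log2 fold change 1.72, SE 0.12; limma, Benjamini-Hochberg adjusted p = 3.3e-05). Syvn1, a ubiquitin ligase of the endoplasmic reticulum, rose 1.32-fold, and Mafk, a partner of NRF1 on DNA, was 1.32-fold lower. Nfe2l1 itself had 381, 362 and 342 in the SAG libraries and 424, 427 and 411 in the DMSO libraries. Its groups did not overlap, but it did not pass (log2 fold change -0.22, SE 0.09; limma, Benjamini-Hochberg adjusted p = 0.0958). Without SAG replicate 3 it was called lower, at -0.18. Nfe2l2 averaged 51.9 ± 14.1 with SAG and 53.9 ± 0.454 with DMSO.

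Of 9 genes for the segregase Vcp and its cofactors, which extract ubiquitinated proteins for the proteasome, 4 fell (Nploc4, Ufd1l, Ubxn4 and Nsfl1c) and none rose. Vcp itself had a log2 fold change of -0.31 and did not pass, but without SAG replicate 3 it was called lower, at -0.45. Nploc4 was 96.2 ± 2.27 with SAG and 137 ± 4.76 with DMSO. Of 9 COP9 signalosome genes, whose products form a complex built like the lid, 3 fell (Cops5, Cops6 and Cops2) and none rose. Cops5, the enzyme of that complex, was 73.4 ± 3.86 with SAG and 98.7 ± 3.71 with DMSO. Of 11 tested genes of interferon-gamma signalling and antigen processing, Irf1 rose 1.48-fold, to 15.6 ± 2.51 with SAG, against 10.5 ± 0.335 with DMSO, and none fell. Without SAG replicate 3, 3 of these 11 were lower (Pdia3, Calr and B2m) and 2 higher. In that fit 27.0% of all genes were lower and 19.7% higher. Leaving out a library moved these counts: between 1 and 9 particle-binding factors, 0 and 3 assembly and import factors, 0 and 2 ubiquitin genes, 1 and 5 Vcp genes and 0 and 5 COP9 genes were called lower. The interferon-gamma list had between 0 and 3 higher and 0 and 3 lower calls. Transcriptional control had between 1 and 3 higher and 0 and 4 lower. In every list the highest number of lower calls was reached without SAG replicate 3.

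**Figure D5:**
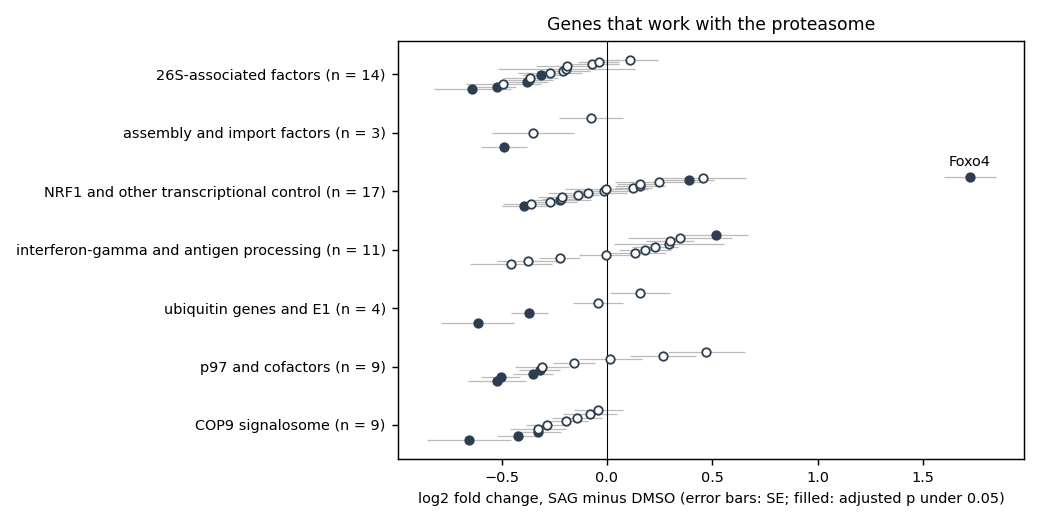
Log2 fold change, SAG minus DMSO, with SE, for the tested genes of 7 lists of genes that work with the proteasome; filled points have an adjusted p under 0.05. Foxo4 (1.72) lies far outside the range of the other genes.

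Markers of other cells were read beside these changes. The 4 markers of interstitial progenitors summed to 797 to 939 with SAG and 279 to 292 with DMSO, and all 4 rose. The 6 markers of fetal Leydig cells summed to 122, 127 and 222 in the SAG libraries and 149 to 157 with DMSO. SAG replicates 1 and 2 were thus below DMSO and SAG replicate 3 above it, and of the 6 genes Hsd3b1 rose. Nr5a1, at 98.8 to 107.6 with SAG and 116.5 to 124 with DMSO, held most of each sum except in SAG replicate 3. In that library Star, Cyp11a1 and Hsd3b1 stood at 50.7, 33.9 and 30.8, each the highest of all 6 libraries. Of the 3 adrenal cortex markers given above, Cyp21a1 rose. The sums of Sertoli cell markers (5 genes) were 29.9 to 31.2 with SAG and 31.02 to 38.01 with DMSO. Most of each sum was Sox9, at 23.2 to 26.6 with SAG and 27.1 to 34.2 with DMSO. Endothelial markers (6 genes) summed to 35.2 to 50.1 with SAG and 31.3 to 38.1 with DMSO. Most of each sum was Cdh5, at 28.3 to 43.8 with SAG and 25.1 to 31.2 with DMSO. Emcn went the other way, at 1.70 to 2.31 with SAG and 2.77 to 3.93 with DMSO, and neither gene passed. Of 8 macrophage markers the sum was at most 3.41 with SAG and 3.24 with DMSO, with Fcgr1 at 0 throughout. Of 7 germ cell markers it was at most 0.220 with SAG and 0.231 with DMSO, with Dppa3, Nanos2, Pou5f1, Mael and Rhox6 at 0. Of 5 erythroid markers it was at most 0.257 with SAG and 0.508 with DMSO. The part of these shifts in the proteasome values was not tested.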

How the data were processed

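The authors deposited 1 table of 24505 rows and 6 columns, a signal per gene: reads scaled to library size and by a factor. The tools named in the submitters' processing notes are STAR, Trim Galore (0.6.4), edgeR (2.2.1 as listed) and featureCounts (2.0.0), with build GRCm38 (mm10). Annotation and strand setting are not given in the sources used here. Labels do not explain "siCnt" in the column names. The 92 spike-in rows were left out of the tests. In each column 100% of values were whole multiples of 1 step within 0.01, which gave back whole reads. The printed SDs and SEs come from the spread among the libraries, which may be technical.

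Values were tested as log2(signal + 1), which understates changes of low genes, with limma 3.58.1 (eBayes with trend, group as the only term) in R 4.3.3, on the 12550 genes whose mean signal reached 1; the step was tested on simulated data. On the recovered reads, edgeR 4.0.16 quasi-likelihood called 1881 genes lower and 1877 higher, 11 and 1 of them members. DESeq2 1.42.0 was an alternative, as were other pseudocounts, filters, scalings and left-out libraries. Coordinates came from GENCODE M21, which matched all 50 members, and promoters from RefSeq, GRCm38.p6. The named genes were the members called, the cutting subunits and their variants, the activators and inhibitor, extremes of level, and up to 4 genes of each list by smallest p; others were named after their values were seen. The members and lists were chosen with earlier results of these data known. Some genes of these lists are not reported here.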

Additional observations from a re-analysis of the deposited data

How the results depend on the processing

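All 11 calls of members were kept with pseudocounts of 0.5 and 0.1, a filter at a mean signal of 5, robust limma, median-of-ratios scaling, edgeR, DESeq2 and thinned reads. With no filter on low values 10 were kept, 1 member was higher (Psmb8), 3 particle-binding and 1 COP9 gene were lower and 0 interferon-gamma genes higher. The 10 are 20.4% of the members tested in that fit, against 10.8% of all genes. The same replicate numbers do not pair the samples: deviations of same-numbered libraries correlated at -0.02, 0.03 and -0.0002, and with a replicate block 11 members were lower, with Psmb2 in and Psme4 out, which left 0 activators lower. The 11 are 23.9% of the members, against 15.7% of all genes in that fit.

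With scaling by library totals 6 members were lower (0 of the core particle, 0 activators) and 2 higher (1 activator, 1 chaperone). The related lists then had 1 particle-binding, 0 assembly and import, 0 control, 0 ubiquitin, 1 Vcp and 0 COP9 genes lower, and 3 interferon-gamma genes and 1 Vcp gene higher. Limma without trend gave 7 members lower (0 core, 0 activators). These are 15.2% of the members, near the 14.6% of all genes lower in that fit. That fit also gave 3 particle-binding and 1 COP9 gene lower and 1 control gene higher. A threshold of 0.1 gave 5 core genes lower and 1 activator higher. Median-of-ratios scaling, edgeR and DESeq2 gave 1 member higher, the activator Psme1. EdgeR and DESeq2 also gave 1 Vcp gene higher, and DESeq2 2 interferon-gamma genes higher, where thinned reads gave 0. With length and GC trends removed, 0 activators, 3 particle-binding, 1 ubiquitin and 3 control genes were lower. Limma with library weights, chosen after seeing the data, gave 25 members lower (10 core, 13 regulatory, 1 chaperone) and 4 higher (2 activators, 2 chaperones). The 25 are 54.3% of the members, where 26.9% of all genes were lower and 21.1% higher. Library weights also gave 9 particle-binding, 3 assembly and import, 5 control and 2 interferon-gamma genes lower and 2 interferon-gamma genes higher. Per kb of the longest transcript the coefficient of variation of core levels was 53.1% with SAG, with SAG replicate 3 included, and 39.8% with DMSO.

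Leaving out each library in turn gave 5 to 27 members lower and 0 to 2 higher: 12, 9 and 27 lower without SAG replicates 1, 2 and 3, and 5, 6 and 6 without DMSO replicates 1, 2 and 3. The share of members lower was 26.1%, 19.6% and 58.7% without SAG replicates 1, 2 and 3, against 15.6%, 15.2% and 27% of all genes. Without DMSO replicates 1, 2 and 3 it was 10.9%, 13% and 13%, against 8.71%, 9.04% and 8.65% of all genes. By part, these fits gave 0 to 11 core, 5 to 14 regulatory, 0 to 1 activator and 0 to 1 chaperone genes lower, and 0 to 1 activators and 0 to 1 chaperones higher. The lists had 1 to 9 particle-binding, 0 to 3 assembly and import, 0 to 4 control, 0 to 3 interferon-gamma, 0 to 2 ubiquitin, 1 to 5 Vcp and 0 to 5 COP9 genes lower. They had 1 to 3 control, 0 to 3 interferon-gamma and 0 to 1 Vcp genes higher. Apart from the smaller sample in these fits, the causes were not tested.

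Signs of log2 fold changes turned for 15 members, in fits where none of them was called. With scaling by library totals these were Psma7 (0.0053), Psmb6 (0.0052), Psmc3 (0.052), Psmc4 (0.044), Psmd6 (0.033), Psmd5 (0.019), Psmd9 (0.12), Psmd10 (0.054), Psme3 (0.038) and Psmc3ip (0.089). With library weights Psmb4 was at -0.040 and Psmd4 at -0.011. With DESeq2 Psmd6 was at 0.0034, Psmd9 at 0.050 and Psmc3ip at 0.0011; Psmd9 was at 0.013 with median-of-ratios scaling and 0.041 with edgeR. With thinned reads Psmd9 was at 0.049, Psmd10 at 0.020, Psmg4 at -0.045 and Psmc3ip at 0.15. With length and GC trends removed Psmd5 was at 0.024, Psmd9 at 0.029, Psmd10 at 0.039, Psmg4 at -0.084 and Psmc3ip at 0.0039. With a library left out the values ran from -0.083 to 0.41 for Psma5, -0.074 to 0.11 for Psmb1, -0.12 to 0.31 for Psmb4, -0.43 to 0.097 for Psmd6 and -0.21 to 0.11 for Psmd9. They ran from -0.31 to 0.11 for Psmd10, -0.19 to 0.19 for Psmg4 and -0.11 to 0.047 for Psmc3ip. Their causes were not tested. SAG libraries were sequenced less deeply than DMSO libraries, which limits low genes such as Psmb8.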
